A study of Mus musculus with 6 samples.

Results

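A set of 9 ligand and receptor genes known to maintain microglia were examined in mouse retinas: the ligands Csf1, Il34, Cx3cl1, Cd200 and Cd47, and the receptors Csf1r, Cx3cr1, Cd200r1 and Sirpa. They were chosen by name as a list of 9 of the 32285 genes in the table of counts, with no threshold on their values. The choice was made with earlier results of these data known. Of these, 8 reached a summed count of 10 in the 6 libraries and were tested, 5 ligands and 3 receptors, and Cd200r1 was not.

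Microglia, the resident macrophages of the retina, depend on signals from the neurons and glia around them. CSF1 and IL34 are both ligands of the receptor tyrosine kinase CSF1R, whose signal keeps microglia alive and dividing. Fractalkine (Cx3cl1) on neurons, CD200 on neurons and endothelium, and CD47 on nearly all cells are read by CX3CR1, CD200R1 and SIRPA on myeloid cells, and these contacts are known to restrain microglial activity and phagocytosis.

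All animals were C57BL/6J pups with oxygen-induced retinopathy (OIR), a model in which 75% O2 from PN8 to PN13 (PN, postnatal day), here given with the mothers present, removes retinal capillaries and leaves the tissue ischemic on return to room air. The OIR-CIH pups then underwent chronic intermittent hypoxia (CIH) for 10 h each day, as 266 cycles of 135 s in which O2 dropped from 20.95% to 5%, and the OIR-Norm pups received an equal flow of gas at constant O2. Retinas were taken at PN18, from 3 eyes per group, and poly(A) RNA was sequenced. Both groups carry the hyperoxic injury, so that the comparison asks how CIH, relative to normoxia, bears on these signals within an ischemic retina, and no retina without OIR was analysed here.

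The total count per library was 26289905 to 38010151. Nr2e3, a photoreceptor transcription factor gene, was at 894.5 to 1599 CPM (counts scaled to a common library size, here with trimmed-mean factors), and all 28 genes of a microglia marker list passed the filter on low counts. Both Xist (298.5 to 1653 CPM) and 4 Y-linked genes (57.3 to 183.8 CPM in sum) were found in all 6 libraries, so that the number of animals behind a library is not known, n counts libraries, and p-values measure the spread between these libraries. With edgeR's quasi-likelihood test, 63 of 20021 genes were called at an adjusted p under 0.05 and a fold change, up or down, larger than 0.5 on the log2 scale (0.315% of those tested), 42 of them lower in OIR-CIH (0.210%) and 21 higher, and the median log2 fold change of all tested genes was -0.005.

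No member was called by edgeR. Of the 8 tested members, 2 had an unadjusted p under 0.05, the ligand Csf1 and the receptor Cx3cr1, both with lower values in OIR-CIH, where 7.10% of all tested genes met that limit with a lower value. The same pair were the 2 members whose 3 OIR-CIH libraries all lay below the 3 OIR-Norm libraries, which held for 9.26% of all tested genes. DESeq2 called both of them lower, beside 101 of the 15735 genes to which it gave an adjusted p (0.642%), and limma on log2(CPM + 0.5), limma-voom and the legacy form of edgeR called 0 members. Every other tested member overlapped between the groups.

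**Figure D1:**
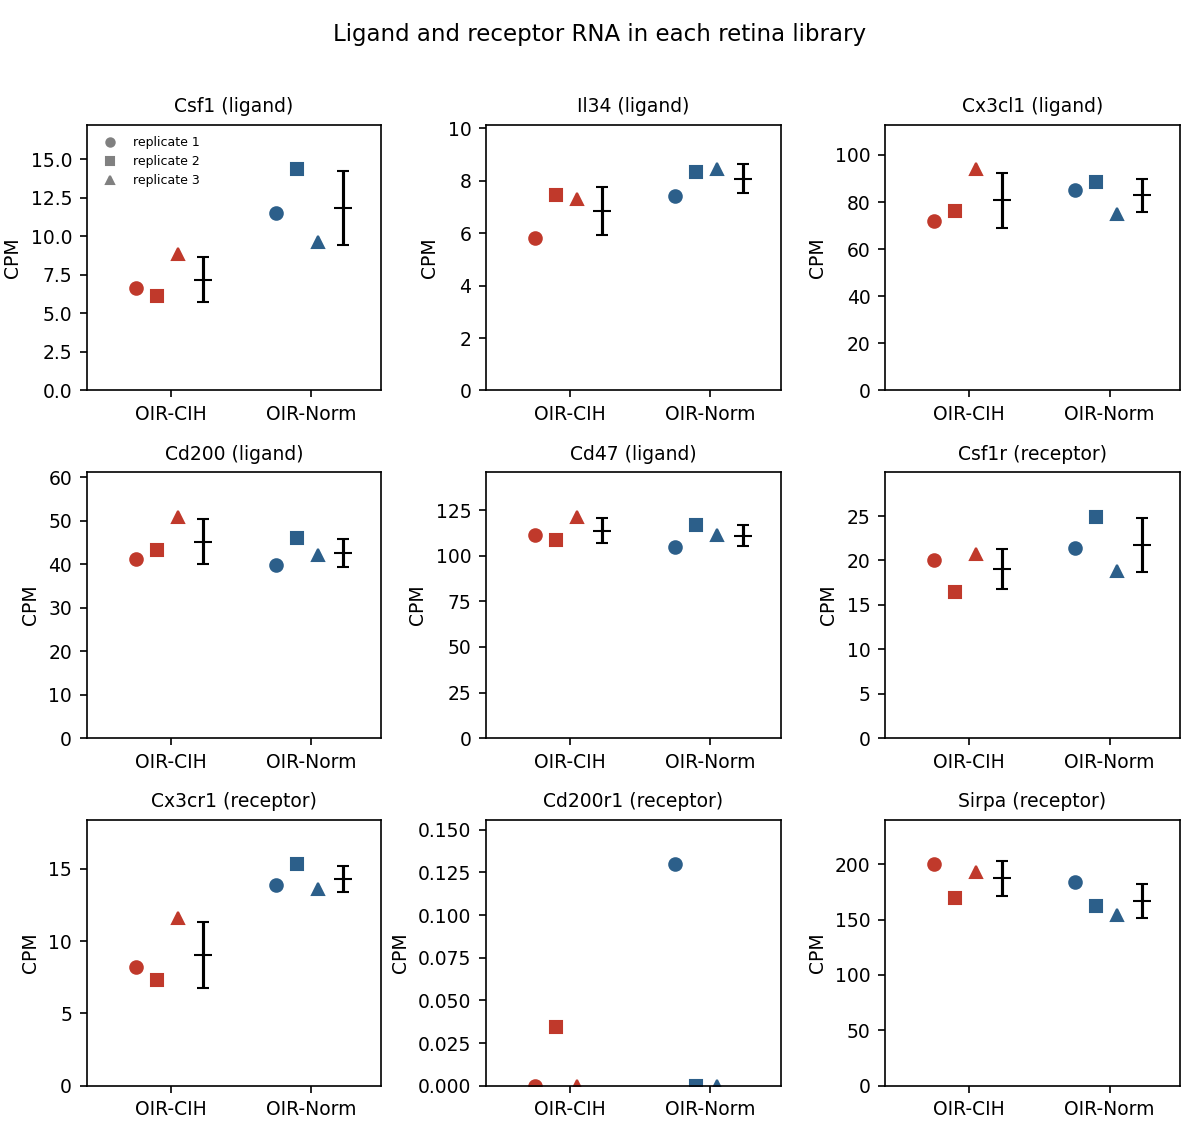
CPM of the 9 genes in each library, OIR-CIH in red and OIR-Norm in blue, with marker shape giving the replicate number and the black bar and whiskers the mean and SD of 3 libraries (not drawn for Cd200r1, which was not tested). Csf1 and Cx3cr1 are the only panels among the tested genes in which the red and blue points do not overlap.

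Levels between genes were compared as CPM per kilobase of exon. In OIR-Norm retinas Sirpa was highest at 34.0 ± 3.15 (SD, n = 3), followed by Cx3cl1 at 21.1 ± 1.77, Cd47 at 17.7 ± 0.924 and Cd200 at 12.8 ± 0.969. The CSF1R axis and Cx3cr1 sat well below these contact signals. Il34 was at 4.12 ± 0.286 CPM per kilobase, Csf1r at 3.77 ± 0.530, Cx3cr1 at 3.17 ± 0.201 and Csf1 at 2.24 ± 0.452. In OIR-Norm the ranges of Il34 and Csf1r overlapped, as did those of Csf1r and Cx3cr1, so that the order within these neighbours was not beyond their spread. The order of the mean levels was the same in OIR-CIH, where Csf1 was at 1.36 ± 0.278 and Cx3cr1 at 2.01 ± 0.503 CPM per kilobase, and there the ranges overlapped between Cx3cl1 and Cd47, between Il34 and Csf1r, and between Cx3cr1 and Csf1.

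Among the ligands, Csf1 differed most. It encodes colony stimulating factor 1, made by glia, neurons and endothelium, and lies on the minus strand of chromosome 3 (GRCm38, 107741048 to 107760469). Csf1 was at 6.63, 6.10 and 8.87 CPM in the OIR-CIH libraries and at 11.5, 14.4 and 9.64 CPM in the OIR-Norm libraries. The groups did not overlap, but the highest OIR-CIH library, replicate 3, lay close to the lowest OIR-Norm library, also replicate 3. The log2 fold change was -0.70 (SE 0.17, 95% interval -1.07 to -0.33), a level of 0.616 times that of OIR-Norm, with an adjusted p of 0.157 by edgeR and 0.00951 by DESeq2. The exact two-sided permutation test over libraries gave p = 0.1, the smallest that 3 against 3 libraries allow.

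As Csf1 was the ligand with the largest difference, the 250 bases before its start are shown, from RefSeq on GRCm38.p6, at chr3:107760470-107760719 on the minus strand, with the bases that match an NF-kappaB motif in capitals.
Csf1 promoter: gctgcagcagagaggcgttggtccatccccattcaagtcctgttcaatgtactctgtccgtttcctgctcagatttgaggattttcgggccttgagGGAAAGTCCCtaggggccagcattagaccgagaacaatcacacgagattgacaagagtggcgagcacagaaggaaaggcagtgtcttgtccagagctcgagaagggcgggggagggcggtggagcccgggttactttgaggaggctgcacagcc
Both strands were searched. The match began 154 bases before the start, and 7.25% of the 32817 RefSeq promoter windows of this length held 1 or more. No match was found in this window to the STAT motif TTCNNNGAA (in 7.01% of windows), the PU.1 motif GAGGAAGT (2.44%), the AP-1 motif TGANTCA (6.75%) or the hypoxia response element ACGTG (16.6%). A match gives the presence of these letters, and factor binding was not measured.

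Il34 encodes the other CSF1R ligand, a neuronal cytokine that in the retina is known from ganglion cells. It was at 5.81, 7.45 and 7.30 CPM in OIR-CIH and 7.43, 8.35 and 8.45 CPM in OIR-Norm, and the groups overlapped by a narrow margin, since OIR-CIH replicate 2 exceeded OIR-Norm replicate 1. Il34 had a log2 fold change of -0.23 (SE 0.13, 95% interval -0.52 to 0.06, adjusted p = 0.486 by edgeR). Of its exonic bases, 4.95% are shared with antisense transcripts whose counts were at most 9 per library.

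Cx3cl1 encodes fractalkine, a chemokine tethered to the neuronal membrane from which metalloproteases release a soluble form. It was at 72.0, 76.2 and 94.0 CPM in OIR-CIH and 85.0, 88.4 and 75.0 CPM in OIR-Norm, with the highest library and the lowest both in OIR-CIH. The log2 fold change was -0.03 (SE 0.10, adjusted p = 0.913 by edgeR), and its 95% interval, -0.26 to 0.19, left out a decrease or an increase of the size required for a call.

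The membrane ligands Cd200 and Cd47, which give inhibitory signals to myeloid cells, were also close in level between the groups. Cd200 was at 41.1, 43.4 and 51.0 CPM in OIR-CIH against 39.7, 46.1 and 42.1 CPM in OIR-Norm (log2 fold change 0.09, SE 0.10, 95% interval -0.12 to 0.29, adjusted p = 0.737 by edgeR). Cd47 was at 111.4, 108.5 and 121.5 CPM in OIR-CIH against 105.1, 116.6 and 111.3 CPM in OIR-Norm (log2 fold change 0.04, SE 0.08, 95% interval -0.13 to 0.20, adjusted p = 0.871 by edgeR). In both genes OIR-CIH replicate 3 was the highest of the 6 libraries and the groups overlapped, and both intervals lay within the minimum fold change used for a call.

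**Figure D2:**
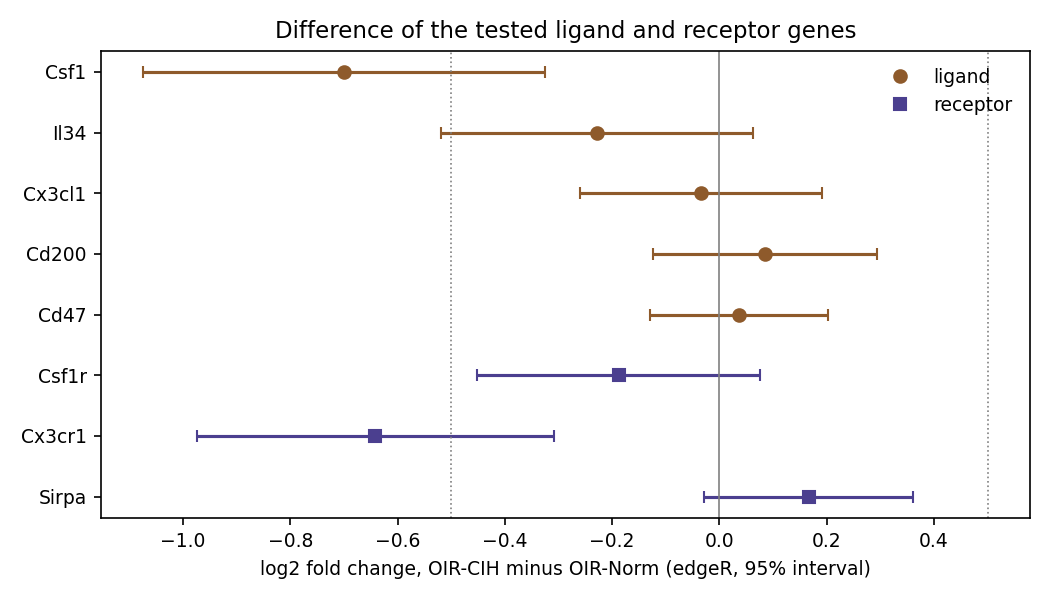
Log2 fold change of each tested gene, OIR-CIH minus OIR-Norm, with its 95% interval from edgeR, ligands as brown circles and receptors as purple squares, and dotted lines at the minimum of 0.5 used for a call. The intervals of Csf1 (-1.07 to -0.33) and Cx3cr1 (-0.97 to -0.31) lie below 0, and those of the other 6 genes include it.

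Among the receptors, Cx3cr1 differed most. It encodes the fractalkine receptor, which in the retina is carried by microglia and other mononuclear phagocytes, and lies on the minus strand of chromosome 9 (GRCm38, 119901616 to 120069879). Cx3cr1 was at 8.24, 7.32 and 11.6 CPM in OIR-CIH and 13.9, 15.3 and 13.6 CPM in OIR-Norm. All 3 OIR-CIH libraries lay below all 3 OIR-Norm libraries, and OIR-CIH replicate 3 was again the highest of its group. The log2 fold change was -0.64 (SE 0.15, 95% interval -0.97 to -0.31), a level of 0.641 times that of OIR-Norm, with an adjusted p of 0.1404 by edgeR and 0.00868 by DESeq2, and p = 0.1 in the exact permutation test. Without OIR-CIH replicate 3, edgeR called Cx3cr1 lower at -0.88 on the log2 scale (adjusted p = 0.0228), and without OIR-CIH replicate 2 the log2 fold change was -0.51.

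Csf1r, the receptor of CSF1 and IL34, was at 20.01, 16.4 and 20.7 CPM in OIR-CIH and 21.5, 24.9 and 18.9 CPM in OIR-Norm. The groups overlapped, with 2 OIR-CIH libraries above the lowest OIR-Norm library. Csf1r had a log2 fold change of -0.19 (SE 0.12, 95% interval -0.45 to 0.08, adjusted p = 0.530 by edgeR). Of the exonic bases of Csf1r, 15.1% overlap Hmgxb3 on the opposite strand, which had 774 to 1498 counts per library and a log2 fold change of -0.14 (adjusted p = 0.579 by edgeR), and the part of its reads in the value of Csf1r was not tested.

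Sirpa encodes the receptor of CD47, an inhibitory receptor of myeloid cells that neurons also carry in abundance. It was at 200.01, 169.5 and 192.6 CPM in OIR-CIH and 184.3, 162.1 and 154.6 CPM in OIR-Norm, with OIR-CIH replicate 2 below OIR-Norm replicate 1. Sirpa had a log2 fold change of 0.17 (SE 0.09, 95% interval -0.03 to 0.36, adjusted p = 0.447 by edgeR), the only receptor with a higher mean in OIR-CIH among the 3 tested.

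Cd200r1, the receptor of CD200, had 0, 1 and 0 counts in the OIR-CIH libraries and 4, 0 and 0 in the OIR-Norm libraries. A count of 0 allows a level of up to 0.0794 to 0.118 CPM in these libraries (3 counts, counting error only), and both group means lay below this limit, so that no fold change is given. The related genes Cd200r2, Cd200r3 and Cd200r4, which resemble Cd200r1 in sequence, had total counts of 3, 1 and 5 over the 6 libraries. The receptor side of the CD200 contact was therefore not measurable at this depth. The SIRPA relatives Sirpb1a, Sirpb1b and Sirpb1c had total counts of 1, 2 and 2, against 4620 to 7278 counts per library for Sirpa.

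Ratios of counts within a library do not depend on how the libraries were scaled. The count ratio of Cx3cl1 to Cx3cr1 was 8.73, 10.4 and 8.09 in OIR-CIH and 6.11, 5.76 and 5.50 in OIR-Norm. Every OIR-CIH library held more Cx3cl1 counts per Cx3cr1 count than every OIR-Norm library, with a difference of 0.64 in the mean log2 ratio (exact permutation p = 0.1, adjusted p = 0.25 over the 5 ratios computed). With log2 fold changes of -0.03 for Cx3cl1 and -0.64 for Cx3cr1, this ratio largely restates the difference of Cx3cr1. The Csf1 to Csf1r ratio was 0.331, 0.371 and 0.428 in OIR-CIH and 0.537, 0.577 and 0.512 in OIR-Norm, also without overlap, and the mean log2 ratio was -0.53 relative to OIR-Norm (exact permutation p = 0.1, adjusted p = 0.25). It largely restates the difference of Csf1, as Csf1 had a log2 fold change of -0.70 and Csf1r of -0.19.

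The other 3 ratios overlapped between the groups. The Csf1 to Il34 ratio was 1.14, 0.819 and 1.21 in OIR-CIH against 1.55, 1.72 and 1.14 in OIR-Norm, a log2 difference of -0.47 in which OIR-Norm replicate 3 fell within the OIR-CIH range (exact permutation p = 0.3, adjusted p = 0.375). The Il34 to Csf1r log2 ratio differed by -0.05 (exact permutation p = 1) and that of Cd47 to Sirpa by -0.13 (exact permutation p = 0.3). The ratio of Cd200 to Cd200r1 was not computed, as Cd200r1 had 0 counts in 4 libraries.

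**Figure D3:**
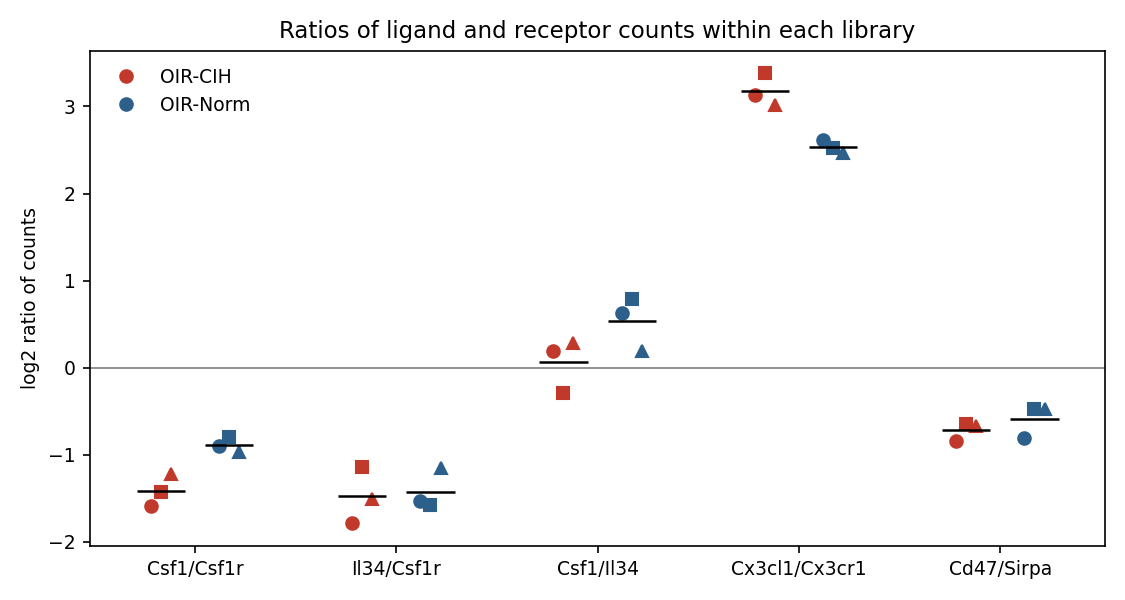
Log2 ratio of the counts of 2 genes within each library, OIR-CIH in red and OIR-Norm in blue, shape giving the replicate number and the black line the group mean. The 3 OIR-CIH points lie above the OIR-Norm points for Cx3cl1/Cx3cr1 and below them for Csf1/Csf1r, and the other 3 ratios overlap.

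The receptors are read here in whole retina, in which fewer microglia and less RNA per microglial cell cannot be told apart. The mean log2(CPM + 0.5) over the 28 microglia markers, none of them a member, was 2.31, 2.43 and 2.43 in OIR-CIH and 2.79, 2.80 and 2.63 in OIR-Norm, without overlap and with a difference of -0.35 (exact permutation p = 0.1). In edgeR, 27 of the 28 markers had a lower value in OIR-CIH and the list median was -0.33 on the log2 scale, 15 had an unadjusted p under 0.05, and 2 were called. These were Mpeg1, the pore-forming protein perforin-2 of phagocytes, at 13.5 ± 0.623 against 22.1 ± 2.67 CPM (log2 fold change -0.71, adjusted p = 0.0123), and the Fc receptor-like gene Fcrls at 6.16 ± 0.436 against 9.94 ± 0.695 CPM (-0.69, adjusted p = 0.0293). Both fell in OIR-CIH. The 1 marker of the 28 with a higher value was Tmem119, a defining gene of mature microglia (log2 fold change 0.09, adjusted p = 0.898 by edgeR). Tmem119 was at 1.92, 2.67 and 2.65 CPM in OIR-CIH and 2.82, 2.38 and 1.70 CPM in OIR-Norm, with overlapping groups. Neither call held whichever library was left out. With OIR-CIH replicate 1 or replicate 2 left out 0 of the 28 markers were called, and Fcrls was also lost without OIR-CIH replicate 3, OIR-Norm replicate 1 or OIR-Norm replicate 3.

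Receptor levels were then set against these markers within each library. Relative to the marker mean, Cx3cr1 was lower by a mean log2 difference of -0.31 with overlapping groups (exact permutation p = 0.2, adjusted p = 0.267 over the 4 genes compared), Csf1r differed by 0.16 (p = 0.3, exact permutation) and Csf1 by -0.33 (p = 0.2, exact permutation). Sirpa minus the marker mean was 5.34, 4.98 and 5.16 in OIR-CIH and 4.74, 4.55 and 4.65 in OIR-Norm. Only for Sirpa among the 4 genes did the groups not overlap, with a difference of 0.51 (exact permutation p = 0.1, adjusted p = 0.267). Of this difference, 0.35 is the lower marker mean, and the CPM of Sirpa itself overlapped between the groups.

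**Figure D4:**
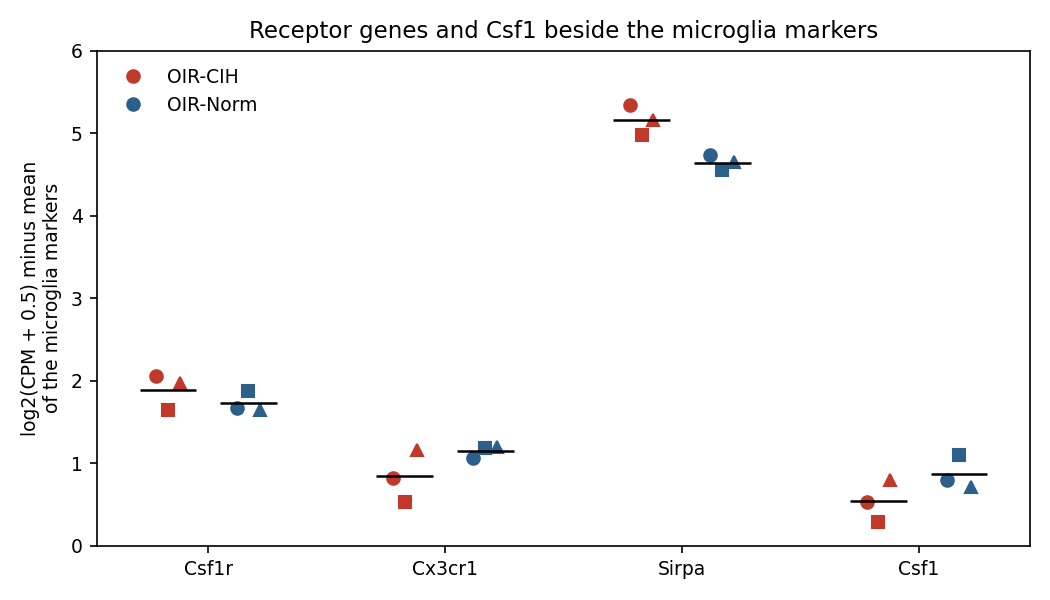
Log2(CPM + 0.5) of each gene minus the mean of 28 microglia markers in the same library, OIR-CIH in red and OIR-Norm in blue, shape giving the replicate number and the black line the group mean. Sirpa is higher in all 3 OIR-CIH libraries, with a difference of 0.51, and Csf1r, Cx3cr1 and Csf1 overlap.

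Markers of cells that could also carry these genes were read in the same way. For Cx3cr1, 6 of 7 tested monocyte and neutrophil markers had a lower value in OIR-CIH (summed level 8.95 to 9.37 CPM against 12.8 to 20.9 CPM), with Ly6c2 and Chil3 too low to test. Most of that sum was Lyz2, the lysozyme gene of phagocytes, and the sums of the other 6 markers, 5 of them under 0.7 CPM in every library, overlapped (1.30 to 2.699 CPM against 2.63 to 4.07 CPM). A lower value was also found for 6 of 8 perivascular macrophage markers (20.1 to 25.0 CPM against 28.7 to 32.5 CPM), a list that shares F13a1 with the monocyte list. Most of that sum was Lyve1 (8.88 to 10.43 CPM against 10.98 to 13.45 CPM) and Stab1 (7.06 to 8.18 CPM against 8.83 to 13.15 CPM). Mrc1 had the largest log2 fold change of the 8 (-0.99, adjusted p = 0.248 by edgeR), at 0.863 to 2.41 CPM against 2.69 to 3.72 CPM, without overlap. The other 2 markers of the 8, Cd163 and Pf4, had a higher value, with overlapping groups at 0.912 CPM or lower in every library. For Csf1, 6 of 7 astrocyte markers had a lower value (462.0 to 489.5 CPM against 493.1 to 660.6 CPM), and Gfap, the intermediate filament gene of astrocytes and reactive Müller glia, was called at 63.8 ± 3.19 against 141.6 ± 20.2 CPM (log2 fold change -1.15, adjusted p = 0.000188 by edgeR). Without Gfap the sums of the other 6 astrocyte markers overlapped, at 399.5 to 428.0 CPM in OIR-CIH and 373.8 to 513.3 CPM in OIR-Norm. The part of these cells in the values of Cx3cr1 and Csf1 was not tested. Müller glia markers were lower in 5 and higher in 5 of 10 genes, with a median log2 fold change of 0.01 and 0 called (4 with an unadjusted p under 0.05, and 0 called by DESeq2). Groups did not overlap for 2 lower and 2 higher genes of this list. Among them, Rlbp1 (log2 fold change 0.34) and Aqp4 (-0.31) had adjusted p of 0.00484 and 0.0220 by DESeq2, below the minimum fold change for a call.

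For the neuronal ligands, the median over 11 ganglion cell markers was 0.0047 on the log2 scale, 5 lower and 6 higher, 12 amacrine and horizontal cell markers had a median of 0.16 with 10 higher, and 10 bipolar cell markers had a median of 0.02. The 9 rod markers all had a higher value in OIR-CIH, with a median of 0.16. Endothelial and pericyte markers had medians of -0.24 over 11 genes and -0.40 over 7 genes. Without OIR-Norm replicate 2, which was also the library with the highest Csf1, these 2 medians were 0.08 and -0.01, and the log2 fold change of Csf1 was -0.54. The 8 pigment epithelium markers had a median of 0.20 but went both ways, over a range of -0.88 to 0.80. In that list 4 were higher, each with an unadjusted p under 0.05 by edgeR, and 4 were lower. No gene of these 7 lists was called by edgeR. In either direction, 13 of 67 had an unadjusted p under 0.05, a larger share than the 13.4% of all tested genes. DESeq2 called 1, the rod transcription factor gene Nr2e3 (log2 fold change 0.55, adjusted p = 0.0537 by edgeR), named here after its value was seen.

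Genes that act with the members were read as lists, with 0 genes called by edgeR in each. Among 16 genes of CSF1R signal transduction and of the myeloid lineage, 15 had a lower value in OIR-CIH and the median log2 fold change was -0.48, against -0.005 over all tested genes. Of these, 5 had an unadjusted p under 0.05 and DESeq2 called 0. The lowest p belonged to Cebpa, a transcription factor gene of the myeloid lineage, at 1.84 ± 0.153 CPM in OIR-CIH and 2.96 ± 0.307 CPM in OIR-Norm (log2 fold change -0.69, adjusted p = 0.205 by edgeR). Tyrobp, an adaptor that couples CSF1R and TREM2 to the kinase SYK, had a log2 fold change of -0.56 (adjusted p = 0.211) and Syk of -0.68 (adjusted p = 0.282). Tyrobp, Spi1 and Irf8 stand in both this list and that of the microglia markers, and the median of the 16 genes was -0.23 without OIR-Norm replicate 2.

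Downstream of the inhibitory receptors CD200R and SIRPA, 6 of 7 genes had a lower value in OIR-CIH and the median was -0.26 on the log2 scale. Of these, 1 had an unadjusted p under 0.05, and DESeq2 called 0. This was Ptpn6, which encodes the phosphatase SHP-1 that SIRPA recruits, at 1.62 ± 0.0309 CPM in OIR-CIH and 2.59 ± 0.238 CPM in OIR-Norm (log2 fold change -0.68, adjusted p = 0.223 by edgeR). The adaptor genes Skap2 (-0.26, adjusted p = 0.433) and Fyb (-0.55, adjusted p = 0.406) followed.

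Proteases that cleave membrane ligands, among them those that release CX3CL1 and CSF1, and their regulators formed a list of 5 genes. Their median log2 fold change was -0.04, with 0 at an unadjusted p under 0.05 and 0 called by DESeq2. Adam17 was at 27.1, 26.7 and 27.4 CPM in OIR-CIH and 28.4, 29.3 and 28.7 CPM in OIR-Norm, groups that did not overlap over a narrow range (log2 fold change -0.09, adjusted p = 0.661 by edgeR). Its partners Rhbdf1 (-0.32, adjusted p = 0.430) and Rhbdf2 (0.07, adjusted p = 0.725) were also not called.

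Of 9 receptors and binding partners related to the members, 3 passed the filter on low counts, with a median log2 fold change of 0.13, 0 at an unadjusted p under 0.05 and 0 called by DESeq2. Ptprz1 and Sdc1, known as further binding partners of IL34, had log2 fold changes of 0.13 (adjusted p = 0.551) and -0.21 (adjusted p = 0.697), and Thbs1, whose product binds CD47, of 0.13 (adjusted p = 0.784 by edgeR).

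Other myeloid growth factors and their receptors had a median of -0.42 on the log2 scale over 9 tested genes, 7 of them lower, with 2 at an unadjusted p under 0.05 and 0 called by DESeq2, and the median was -0.0587 without OIR-Norm replicate 2. These 2 genes were the receptor genes Csf3r (-0.63, adjusted p = 0.299) and Csf2rb (-0.63, adjusted p = 0.319 by edgeR), both at 2.11 CPM or lower in every library. The ligand genes Csf2 and Il3 were not tested, with total counts of 1 and 0, and Csf3 was below 0.409 CPM in every library.

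The last list held 25 other ligand and receptor genes of microglia, of the TGF-beta, TAM receptor, complement and chemokine systems. Of these, 21 had a lower value in OIR-CIH, 13 had an unadjusted p under 0.05, and the median log2 fold change was -0.38. Pros1, which encodes protein S, a ligand of the TAM receptors that mediate uptake of dying cells, had the lowest p. It was at 12.6, 11.6 and 13.8 CPM in OIR-CIH and 18.5, 20.5 and 16.2 CPM in OIR-Norm, without overlap (log2 fold change -0.53, adjusted p = 0.0919 by edgeR), and was the only gene of this list that DESeq2 called (adjusted p = 0.00646). The complement receptor gene C3ar1 (-0.72, adjusted p = 0.223) and the chemokine gene Ccl3 (-1.33, adjusted p = 0.275 by edgeR) also had groups that did not overlap, at 3.05 CPM or lower in every library.

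**Figure D5:**
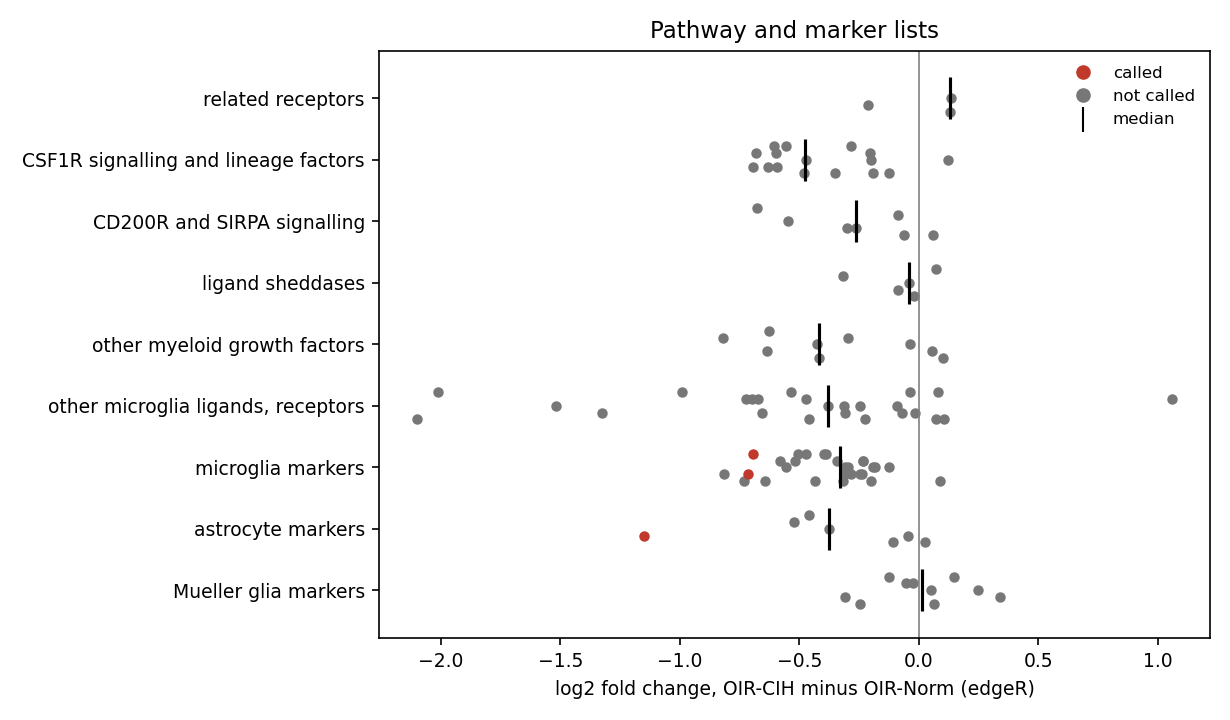
Log2 fold change of the genes of 9 pathway and marker lists, OIR-CIH minus OIR-Norm from edgeR, each point a tested gene (red if called) and each black line the median of its list. The medians of CSF1R signalling and lineage factors (-0.48) and of microglia markers (-0.33) lie below 0, and those of ligand sheddases (-0.04) and Müller glia markers (0.01) lie near it.

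The pattern of Csf1 and Cx3cr1 over the 6 libraries was set beside that of the 14789 other tested genes with a mean of at least 1 CPM, as a Pearson correlation of log2(CPM + 0.5). For Csf1 the closest included Col9a1, Anxa5, Abi3bp and Noc4l, with r of 0.993 to 0.996. For Cx3cr1 they were Phf8, Sc5d, Map3k5, Pgghg and Topbp1, with r of 0.985 to 0.994. None of these 9 genes was called by edgeR, and their log2 fold changes were -0.47 to -0.16. Csf1 and Cx3cr1 correlated with each other at r = 0.96 and Csf1 with Csf1r at r = 0.85. With 6 libraries in 2 groups such values include the difference between the groups, and for Csf1 337 of the 14789 genes (2.28%) passed an r of 0.9.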

How the data were processed

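The authors aligned the reads with STAR 2.7.9a, counted reads per gene and deposited 1 table of raw counts without normalization. The submitters' notes name GRCm38 and the study's methods name Ensembl 105. Which strand column was kept is not given in the sources used here. Libraries were made from 250 ng of total RNA with a stranded kit.

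Gene identifiers were matched to GENCODE M21 (32158 of 32285 had a symbol), which also gave coordinates and exon lengths on GRCm38. Genes whose counts summed to 10 or more over the libraries were tested in R 4.3.3 with edgeR 4.0.16 (trimmed mean of M-values, trims of 0.3 and 0.05, Benjamini-Hochberg adjustment over 20021 genes), and the fit was tested on simulated counts. DESeq2 1.42.0 and limma 3.58.1 were alternatives, and the study's methods name DESeq for its own test of these groups. Further alternatives were median-of-ratios scaling, other filters, a block on replicate number, a Y-linked covariate and leaving out each library. Single values were compared with an exact two-sided permutation test over the 20 arrangements of the libraries.

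The members and gene lists were chosen with earlier results of these data known. Named genes are all members, the called genes and otherwise at most 3 genes with the lowest p of each pathway list and of the microglia markers, the 5 genes closest in pattern to Csf1 and to Cx3cr1, of which 1 is not reported here, and markers that moved with a result. Tmem119, Gfap, Slc1a2, Pdgfra, Pax2, Rlbp1, Aqp4, Lyz2, F13a1, Lyve1, Stab1, Mrc1, Cd163, Pf4, Spi1, Irf8 and Nr2e3 were named after their values were seen. No 2 libraries differed by as little as sampling noise (chi-square per degree of freedom of 10.35 or more). The lowest value was for libraries of different groups, OIR-CIH replicate 2 and OIR-Norm replicate 3. Pairs within a group had values of 11.47 to 23.41. The libraries were treated as unpaired, and whether the replicate numbers pair them is not known.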

Additional observations from a re-analysis of the deposited data

How the results depend on the processing

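The precision here is limited by 3 libraries per group and, for Cd200r1, by depth. Across the 10 other settings that kept all libraries (tests, scaling, filters, replicate block, Y-linked covariate and no minimum fold change), every tested member kept its direction, and no call changed except that DESeq2 called Csf1 (-0.71, adjusted p = 0.00951) and Cx3cr1 (-0.65, adjusted p = 0.00868). The adjusted p over these settings was 0.00951 to 0.233 for Csf1 and 0.00868 to 0.169 for Cx3cr1. The Y-linked covariate was added after the data were seen.

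DESeq2 called 135 genes, 101 lower and 34 higher, all 63 edgeR calls among them, and in the lists it also called 1 other microglia ligand gene (Pros1), 1 monocyte marker (Lyz2) and 1 rod marker (Nr2e3). The cause of the difference between the tests was not tested.

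Leaving out each library gave 29 to 97 genes called (without OIR-CIH replicate 1 and OIR-Norm replicate 3), 22 to 81 lower and 7 to 31 higher. The log2 fold change of Csf1 was -0.90 to -0.54 (adjusted p 0.06 to 0.441) and of Cx3cr1 -0.88 to -0.51 (adjusted p 0.0228 to 0.435), of Il34 -0.29 to -0.13, of Csf1r -0.28 to -0.08 (and -0.29 with the Y-linked covariate) and of Sirpa 0.11 to 0.24. Of the members, 3 changed sign. Cx3cl1 ranged from -0.16 to 0.0383 and was 0.0383, 0.0051 and 0.0138 without OIR-CIH replicate 1, OIR-CIH replicate 2 and OIR-Norm replicate 2. Cd200 ranged from -0.0159 (without OIR-CIH replicate 3) to 0.14, and Cd47 from -0.0177 (without OIR-CIH replicate 3) to 0.0723, with -0.0072 without OIR-Norm replicate 1. The log2 differences of Cx3cl1/Cx3cr1 (0.54 to 0.72), Csf1/Csf1r (-0.63 to -0.44) and Sirpa beside the markers (0.42 to 0.61) kept their sign, and that of Il34/Csf1r (-0.22 to 0.10) did not.

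Median log2 fold changes of the lists without each library were -0.0638 to 0.22 for related receptors, -0.63 to -0.23 for CSF1R signal transduction, -0.31 to -0.12 for CD200R and SIRPA signal transduction, -0.0846 to -0.0338 for sheddases, -0.53 to -0.0587 for other myeloid growth factors, -0.63 to -0.25 for perivascular macrophage, -0.56 to -0.20 for astrocyte and -0.0602 to 0.10 for bipolar cell markers. Those of endothelial (-0.38 to 0.08), ganglion cell (-0.08 to 0.07) and Müller glia markers (-0.06 to 0.07) also changed sign, whereas pericyte (-0.70 to -0.01), rod (0.08 to 0.23), amacrine and horizontal cell (0.06 to 0.23), pigment epithelium (0.08 to 0.41) and other microglia ligand and receptor genes (-0.44 to -0.23) did not. Genes called were 0 to 1 for other microglia ligands and receptors (Pros1), 0 to 2 for microglia markers, 0 to 1 for monocyte markers (Lyz2), 0 to 1 for perivascular macrophage markers (Mrc1) and 0 to 2 for pigment epithelium markers (Ttr and Rgr), Lyz2, Mrc1, Ttr and Rgr named after their values were seen.

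Same-numbered libraries deviated from their group means with correlations of 0.162, 0.143 and -0.238. These values differ in sign, and with 3 libraries per group they cannot show whether the replicate numbers pair the libraries. With a replicate block 68 genes were called and 0 members, Csf1 at -0.70 (adjusted p = 0.233) and Cx3cr1 at -0.66 (adjusted p = 0.169).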
